A study of Mus musculus and Homo sapiens with 9 samples.

Results

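The genes of the proteasome were examined in 9 lists of CUT&Tag peaks, 5 from mouse embryonic fibroblasts (MEFs) and 4 from the human embryonic kidney line HEK293. A gene was taken as a member when it was annotated as protein-coding and its symbol began with PSM, 1 letter from A to G and a number, whatever followed. This rule found 50 of 21938 protein-coding mouse genes in GENCODE M21 and 50 of 20033 protein-coding human genes in GENCODE 44. It uses symbols and no measured value. By symbol, 49 genes were members in both species; the mouse alone added Psme2b and the human alone PSME3IP1. Of the members, Psmc3ip in the mouse, and PSMC3IP and PSME3IP1 in the human, carry the prefix but encode proteins named as partners of a subunit and not subunits.

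The MEFs came from mid-gestation Mcm8 embryos and were immortalised with an SV40 lentivirus. S9.6, an antibody against RNA-DNA hybrids, was applied to Mcm8 wildtype (WT) and Mcm8 knockout (KO) MEFs, to MEFs with a Ddx5 knockdown by an shRNA adenovirus (shDdx5) and to their control (shControl), while wildtype MEFs without primary antibody served as the negative control. In wildtype HEK293 cells, S9.6 was applied alone or after transfection of an RNH1 plasmid, RNH1 being the name the study uses for RNase H1, an enzyme that cuts the RNA strand of such hybrids. Anti-FLAG was applied after transfection of a FLAG-MCM8 plasmid, so that this profile is of an overexpressed tagged protein, and mouse IgG served as the control. The labels do not give the Mcm8 genotype of the shControl and shDdx5 cells. Each group had 1 library and there were no replicates, so that every difference given here is between 2 libraries, carries no p-value and has no replicate error behind it.

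An R-loop is an RNA-DNA hybrid together with the DNA strand it displaces, and forms mostly behind transcribing RNA polymerase near gene starts. MCM8 is a helicase of the MCM family and DDX5 is an RNA helicase that can resolve R-loops. The proteasome degrades proteins marked with ubiquitin. Its 20S core is a barrel of alpha rings, which gate the entry, and beta rings, which hold the proteolytic sites. The 19S regulator caps the core, with ATPases that unfold the substrate and non-ATPase subunits that bind and remove ubiquitin. Immune cells and cells exposed to interferon swap in immunoproteasome beta subunits and the PSME1 and PSME2 activator. Dedicated chaperones assemble the particle. The genes of the constitutive subunits are expressed in nearly all cells and are induced together by the transcription factor NFE2L1, which binds antioxidant response elements (ARE).

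In CUT&Tag a transposase tethered by the antibody cuts and tags the DNA at the bound sites. A gene was scored as having a promoter peak where the midpoint of a peak lay within 1 kb of any of its annotated transcription start sites (TSSs). The fold of a peak is the fragment pileup at its summit over the local background, as MACS2 gave it. From this fold and its p the whole-number pileup was recovered, and from the pileup a 95% Poisson interval of the fold, which covers counting error only, as do all intervals below. The MACS2 p-values of the MEF peaks go up to 0.001 and those of the HEK293 peaks only up to 1e-05, so MEF and HEK293 values are not compared with each other. A gene without a peak had none that passed the caller, which is not a measurement of no signal. The relative depth recovered from the lists was 5729 to 7001 fragments per Mb in the 4 MEF S9.6 libraries, 719.8 in the no-antibody library and 8314 to 11050 in the HEK293 libraries. As a check of the labelled cells, only Vim of 5 fibroblast genes (Col1a1, Col1a2, Vim, Thy1 and S100a4) had a promoter peak in any MEF list, in all 4 S9.6 lists. In HEK293 cells KRT8 had one in S9.6 and FLAG-MCM8, VIM in the list with the RNH1 plasmid and KRT18 in none. Promoter peaks are not a readout of expression, so these markers neither establish nor contradict the labels.

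To show the DNA behind the recurrent peaks, stretches are given for 3 genes, Psme2, Psma3 and Psmd3, that had S9.6 promoter peaks in most lists of both species. Each is the strand of the gene, 5′ to 3′, and lies in the part common to the overlapping S9.6 peaks, outside every annotated exon. In mm10 the Psme2 stretch is chr14:55591114-55591213 on the minus strand, in no annotated gene, and lay under all 4 MEF S9.6 peaks; the Psma3 stretch is chr12:70974768-70974867 on the plus strand, in an intron of Psma3, and the Psmd3 stretch is chr11:98682229-98682328 on the plus strand, upstream of the gene, and both lay under the WT, KO and shDdx5 peaks. In hg38 the PSME2 stretch is chr14:24147259-24147358 on the minus strand, in introns of PSME2 and of RNF31 on the opposite strand; the PSMA3 stretch is chr14:58244942-58245041 on the plus strand, in introns of PSMA3 and of ARMH4; and the PSMD3 stretch is chr17:39980632-39980731 on the plus strand, upstream of the gene. The S9.6 peaks with and without the RNH1 plasmid covered all 3 human stretches, and a FLAG-MCM8 peak covered the PSMA3 stretch as well. Capitals mark a CCAAT box (CCAAT) on either strand, the only one of the 3 motifs searched below that occurs in them.
Psme2: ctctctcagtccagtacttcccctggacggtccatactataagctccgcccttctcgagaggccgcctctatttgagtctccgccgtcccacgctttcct
Psma3: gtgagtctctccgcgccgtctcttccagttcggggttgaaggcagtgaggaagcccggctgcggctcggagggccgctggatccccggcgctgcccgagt
Psmd3: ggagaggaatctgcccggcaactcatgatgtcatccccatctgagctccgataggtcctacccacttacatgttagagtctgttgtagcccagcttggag
PSME2: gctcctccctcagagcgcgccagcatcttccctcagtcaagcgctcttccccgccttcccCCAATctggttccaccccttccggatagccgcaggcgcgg
PSMA3: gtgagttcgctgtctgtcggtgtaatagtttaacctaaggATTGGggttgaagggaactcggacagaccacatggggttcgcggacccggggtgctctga
PSMD3: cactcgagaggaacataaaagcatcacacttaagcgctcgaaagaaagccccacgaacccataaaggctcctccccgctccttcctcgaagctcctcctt

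Promoter peaks were found at 11 of the 50 members in WT (22%, 95% Wilson interval 12.8 to 35.2), against 11.3% of all protein-coding genes. KO also had them at 11 (22%), where the share of all genes was 16%. In shControl 8 members (16%, interval 8.34 to 28.5) had one, against 14.7% of all genes, and in shDdx5 17 members (34%, interval 22.4 to 47.8), against 23.1%. The no-antibody list had 2 (4%, interval 1.1 to 13.5), against 1.24%. The number of members was therefore equal in WT and KO, while that of all genes went from 2483 to 3517; from shControl to shDdx5 the members went from 8 to 17 and all genes from 3234 to 5068. In 3 of the 4 S9.6 lists, KO, shControl and shDdx5, the share of all genes lay inside the members' interval, and in WT it lay below it. The interval treats the members as independent genes of 1 library, so its place beside that share is not a test.

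In HEK293 cells 24 members had a promoter peak with S9.6 (48%, interval 34.8 to 61.5), against 30.1% of all genes. With the RNH1 plasmid 16 did (32%, interval 20.8 to 45.8), against 24.6%. The share of all genes lay below the members' interval in S9.6 and inside it in the other 3 lists. That placement is again not a test, and a single S9.6 peak scored both PSMB8 and PSMB9. FLAG-MCM8 had 7 (14%, interval 6.95 to 26.2), against 12%, and IgG had 4 (8%, interval 3.15 to 18.8), against 5.59%. The members have more annotated TSSs than other genes, a median of 5 against 3 in the mouse and 8 against 5 in the human, which gives them more ways to be scored. Set beside genes with a like number of TSSs, the gap was wide for some numbers and narrow or turned for others. Of the 18 mouse members with 1 to 3 TSSs, 22.2% had a promoter peak in WT and 33.3% in KO, and 11.1% had it in shControl and 27.8% in shDdx5, where 5.88%, 8.91%, 8.08% and 12.2% of 11812 genes did. Of the 23 with 4 to 7 TSSs the shares were 17.4%, 13%, 21.7% and 30.4%, beside 14.9%, 21.2%, 19.3% and 31.8% of 6800 genes. Of the 9 with 8 or more they were 33.3%, 22.2%, 11.1% and 55.6%, beside 23.4%, 30.6%, 29.1% and 44.1% of 3326 genes. In HEK293 S9.6, 50% of 4 members with 1 to 3 TSSs had a promoter peak, 40% of 20 with 4 to 7 and 53.8% of 26 with 8 or more, beside 15.8%, 31% and 43.3% of genes. With the plasmid these shares were 50%, 25% and 34.6%, beside 12.3%, 25.4% and 36.1%. In FLAG-MCM8 they were 25%, 0% and 23.1%, beside 6.3%, 11.7% and 17.9%. In IgG they were 0%, 0% and 15.4%, beside 2.49%, 4.94% and 9.14%.

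**Figure D1:**
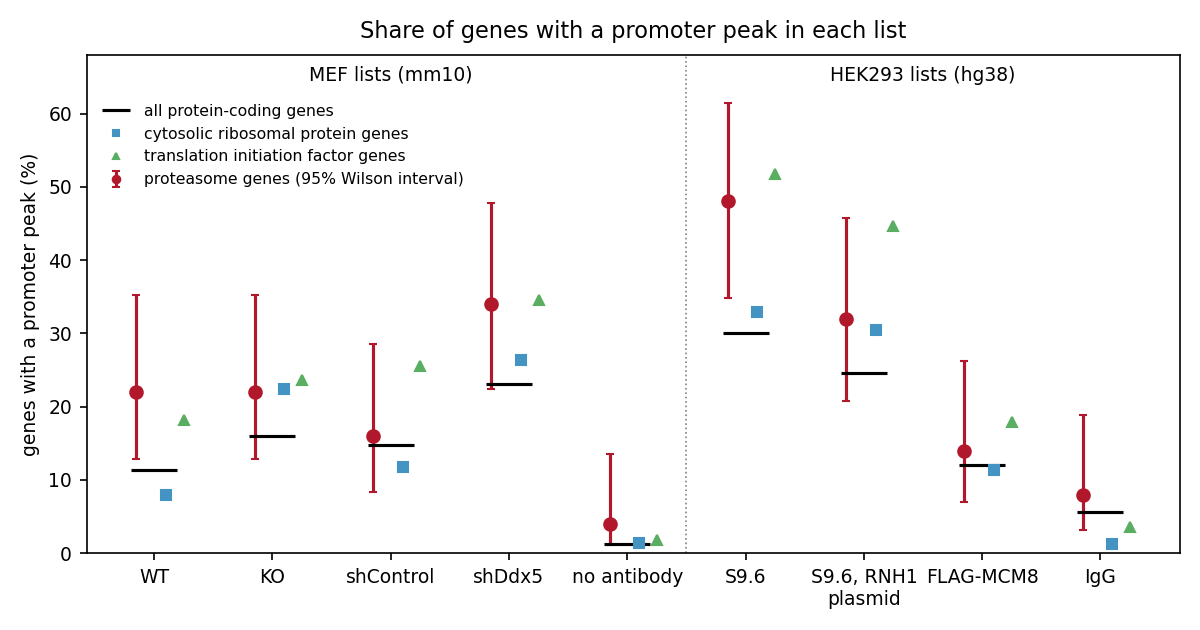
Share of genes with a promoter peak (%) in each of the 9 lists, for the 50 proteasome genes of the species (circles, with 95% Wilson intervals), all protein-coding genes (bars), cytosolic ribosomal protein genes (squares) and translation initiation factor genes, taken by their EIF symbols (triangles). The proteasome genes range from 4% in the no-antibody list to 48% in HEK293 S9.6. In 7 of the 9 lists the share of all protein-coding genes lies inside their interval, and in WT and HEK293 S9.6 below it. This placement is not a test.

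Genes of 2 other large housekeeping complexes or pathways were taken for comparison. Initiation factor genes were taken as those whose symbols begin with EIF and a number, whatever followed. No gene was removed for what it encodes, so not all need encode an initiation factor. The shares, of 55 genes, were 18.2% in WT and 23.6% in KO, and 25.5% in shControl and 34.5% in shDdx5. The 76 cytosolic ribosomal protein genes had 7.89%, 22.4%, 11.8% and 26.3% in the same order. All protein-coding genes had 11.3%, 16%, 14.7% and 23.1%. The ribosomal genes thus went from 6 in WT to 17 in KO and all genes from 2483 to 3517, where the proteasome genes stayed at 11. For the proteasome genes KO less WT was 2 with TSSs within 3 kb, with only the 5′ end, and at a q of 0.05. There their share went from 22% to 26%, from 18% to 22% and from 10% to 14%. That of all genes went from 13.9% to 19.2%, from 9.23% to 13.5% and from 6.32% to 9.8%. At a fold of at least 4 the proteasome genes stayed at 8%, and all genes went from 4.48% to 7.02%. The ribosomal and initiation factor genes were not recomputed under those settings. In HEK293 S9.6, 51.8% of 56 initiation factor genes and 32.9% of 79 ribosomal genes had a promoter peak, beside 30.1% of all genes. No difference between these gene lists was tested.

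Within the mouse core particle, the peaks of the alpha and the beta ring are given by list, beside shares of all genes of 11.3% in WT and 16% in KO, and of 14.7% in shControl and 23.1% in shDdx5. No difference between the rings was tested, and several of these peaks missed a q of 0.05, namely Psma3, Psmb2 and Psmb3 in WT, Psma2 and Psma5 in KO, and Psma7 and Psmb2 in shControl. The alpha ring has 7 ordinary subunits. Psma3 alone had a promoter peak in WT, and Psma7 alone had one in shControl. In KO and in shDdx5 the same 4 genes had one, Psma2, Psma3, Psma4 and Psma5. Of the 7 beta ring genes, WT had peaks at Psmb1, Psmb2 and Psmb3 and KO had none. shControl had peaks at Psmb1 and Psmb2, and shDdx5 at Psmb1, Psmb2, Psmb3 and Psmb6, the last encoding a catalytic subunit. The testis alpha subunit gene Psma8 had no promoter peak in any list.

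Psma2, Psma4 and Psma5 were the members with a peak in KO and shDdx5 and in neither WT nor shControl, 3 of 50 (6%), against 2.95% of all genes. All 3 encode alpha ring subunits of the 20S core. The Psma2 peak, which lies over the start shared with Mrpl32 on the opposite strand, had a fold of 3.90 in KO (interval 1.93 to 7.27, pileup 8) and 5.32 in shDdx5 (3.07 to 8.68, pileup 14). Its nearest WT peak was 549841 bp away. Psma4 had a fold of 4.56 in KO (2.52 to 7.70, pileup 12) and 4.76 in shDdx5 (2.80 to 7.66, pileup 15), with the nearest WT peak 86049 bp away and the nearest shControl peak 28520 bp away. Psma5 had a fold of 3.75 in KO (1.92 to 6.77, pileup 9) and 4.37 in shDdx5 (2.36 to 7.53, pileup 11). For each of the 3 genes the KO and shDdx5 peaks overlapped each other, and the intervals of their folds overlapped widely. In KO the −log10 q was 1.22 at both Psma2 and Psma5, short of a q of 0.05, and 2.68 at Psma4; in shDdx5 all 3 were at 2.61 or above. No member had the reverse pattern, a peak in WT and shControl and in neither KO nor shDdx5, which 0.365% of all genes had.

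**Figure D2:**
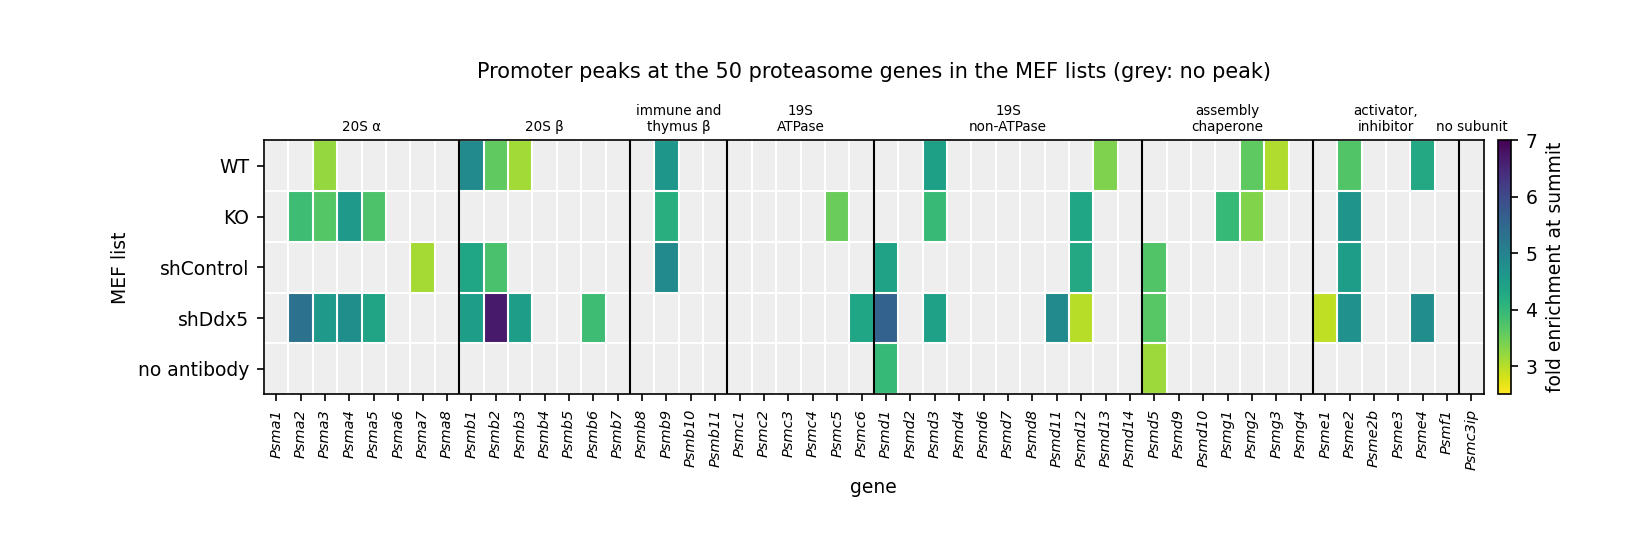
Fold enrichment at the summit of the strongest promoter peak (colour, from 2.5 to 7) for each of the 50 mouse proteasome genes (columns, by subunit class) in the 5 MEF lists (rows), with grey where no promoter peak was called. Psme2 is coloured in all 4 S9.6 lists, and Psma2, Psma4 and Psma5 in KO and shDdx5.

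Between WT and KO, 5 members had a promoter peak in both (10%, against 6.66% of all genes): Psma3, the immunoproteasome subunit gene Psmb9, the 19S non-ATPase gene Psmd3, the activator gene Psme2 and the assembly chaperone gene Psmg2. At all 5 the WT and KO peaks overlapped, as they did at 91.4% of all genes with both. A further 6 members had a peak in KO and not in WT (12%, against 9.38%), namely Psma2, Psma4, Psma5, Psmc5, Psmd12 and Psmg1. Another 6 had one in WT and not in KO (12%, against 4.66%), namely Psmb1, Psmb2, Psmb3, Psmd13, Psme4 and Psmg3. The Psmb1 peak, over an intron of a beta subunit gene, had the highest fold of the members in WT, 4.84 (2.74 to 8.03, pileup 13), with the nearest KO peak 10969 bp away. Psme4, which encodes the PA200 activator, had 4.29 in WT (2.26 to 7.57), and the lowest was Psmg3, a chaperone gene, at 3.04 (1.55 to 5.49). Of the KO peaks, Psmd12, a non-ATPase lid subunit gene, had 4.36 (2.42 to 7.37) and Psmg1, a chaperone gene, 3.98 (2.21 to 6.73). The peak of the ATPase gene Psmc5 had 3.52 (1.85 to 6.20) and lay at a start shared with Ftsj3.

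These peaks were weak in number of fragments. Pileups at the member peaks were 8 to 16 in WT and 8 to 20 in KO. A q no higher than 0.05 was found for 5 of the 11 WT peaks and 7 of the 11 KO peaks, where 52.7% and 59% of all promoter peaks reached it. Of the 6 members that only WT had, Psmb1 and Psme4 reached it, and of the 6 that only KO had, Psma4, Psmd12 and Psmg1 did. With that threshold the counts were 5 in WT and 7 in KO. Recovered depth was 6490 fragments per Mb in WT and 5729 in KO, so KO was the shallower of the 2 libraries.

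Between shControl and shDdx5, 6 members had a promoter peak in both (12%, against 9.77% of all genes): Psmb1, Psmb2, Psmd1, Psmd12, Psmd5 and Psme2. The peaks overlapped at all of these except the chaperone gene Psmd5, where they lay at different TSSs, and overlapped at 87.8% of all genes with both. A peak in shDdx5 and not in shControl was found at 11 members (22%, against 13.3% of all genes): Psma2, Psma3, Psma4, Psma5, Psmb3, Psmb6, Psmc6, Psmd11, Psmd3, Psme1 and Psme4. The reverse was found at 2, Psma7 and Psmb9 (4%, against 4.97%). The highest fold of the members in shDdx5 was at Psmb2, 6.67 (4.15 to 10.20, pileup 19), where shControl had 3.79 (1.94 to 6.86, pileup 9) and WT 3.59 (1.84 to 6.49). These intervals overlap. Psmd11, a lid subunit gene, had 4.84 (2.93 to 7.59), Psmc6, an ATPase gene, 4.36 (2.51 to 7.11), Psmb6 3.90 (2.06 to 6.88), and Psme1, which encodes the partner of Psme2 in the activator ring, 2.93 (1.54 to 5.17). A q no higher than 0.05 was found for 15 of the 17 member peaks in shDdx5, all but Psmd12 and Psme1, and by 5 of 9 in shControl, where Psmb9 had 2 peaks. The shares of all promoter peaks that reached it were 77.7% and 49.5%. Recovered depths were near each other, 6822 in shControl and 7001 in shDdx5. The lists also differed as a whole. Of 12259 shControl peaks 28.1% reached a q of 0.05 and 24.4% lay at promoters, and of 11768 shDdx5 peaks 60.5% and 40.2% did. With 1 library each, a difference in hybrids and a difference in signal over background between the libraries cannot be told apart. Nor can more cells with a hybrid at a promoter and more hybrids per cell be told apart in bulk libraries.

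Psme2 was the only member with a promoter peak in all 4 MEF S9.6 lists, 1 of 50 (2%), against 4.19% of all genes. It encodes the beta subunit of the interferon-inducible PA28 activator. Its fold was 3.73 in WT (2.22 to 5.92, pileup 16), 4.67 in KO (2.94 to 7.09, pileup 20), 4.47 in shControl (2.71 to 7.0, pileup 17) and 4.73 in shDdx5 (3.10 to 6.94, pileup 24). The 4 intervals overlap. All 4 peaks cover a TSS of Psme2 and the Psme2 stretch printed above. Their summits lie upstream of that TSS, by 67 bp in WT, 125 bp in KO, 68 bp in shControl and 248 bp in shDdx5. Their midpoints are also within 1 kb of a TSS of Rnf31, a ubiquitin ligase gene on the opposite strand. No peak was called there without antibody, the nearest being 17517 bp away. In all, 24 members had a promoter peak in at least 1 MEF S9.6 list (48%, against 33.9% of all genes). Of these, 9 had it in 1 list, 8 in 2 and 6 in 3.

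**Figure D3:**
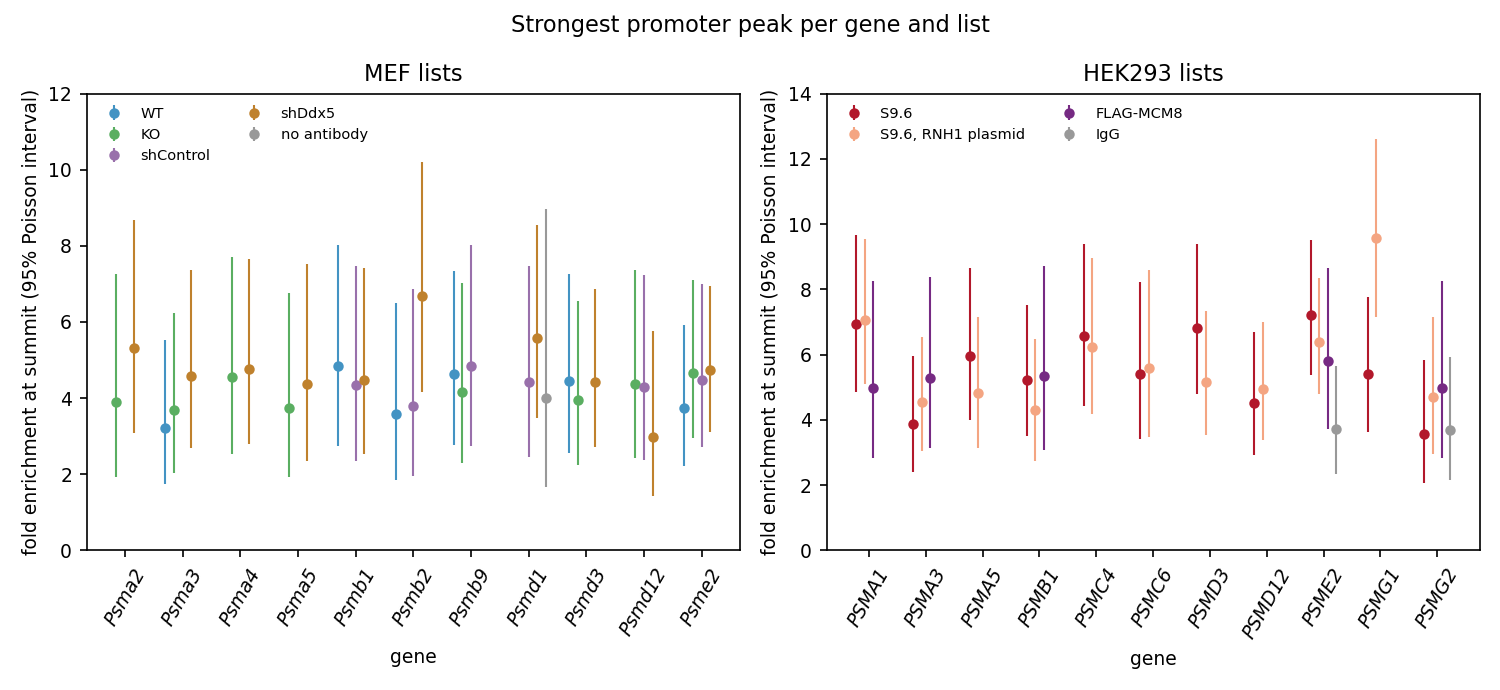
Fold enrichment at the summit of the strongest promoter peak with its 95% Poisson interval, for 11 mouse genes in the MEF lists (left) and 11 human genes in the HEK293 lists (right), coloured by list. For most genes the intervals of the lists overlap, for example at Psme2, where the 4 S9.6 folds run from 3.73 to 4.73, and PSMG1 with the RNH1 plasmid, at 9.57, has the highest fold shown.

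Psmb9, in the major histocompatibility region, had overlapping peaks in WT (fold 4.62, interval 2.76 to 7.33), KO (4.16, 2.30 to 7.02) and shControl (4.84, 2.74 to 8.03) and none in shDdx5. These lie at the start shared with Tap1, the peptide transporter gene of antigen presentation. Psmd3, a lid subunit gene, had peaks upstream of its start in WT (4.45, 2.56 to 7.26), KO (3.96, 2.24 to 6.56) and shDdx5 (4.43, 2.72 to 6.86). Psma3 had an intronic peak in the same 3 lists, with folds of 3.21 (1.74 to 5.53), 3.68 (2.04 to 6.23) and 4.58 (2.69 to 7.37). At Psmd3 and at Psma3 the intervals of the 3 lists overlapped, and no difference was tested. Neither gene had a promoter peak in shControl.

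The 2 members with a promoter peak in the no-antibody list were Psmd1, which encodes the large scaffold subunit Rpn2 of the 19S base, and Psmd5. The Psmd1 peak had a fold of 3.99 (1.67 to 8.97) on a pileup of 4, and Psmd5 had 3.16 (1.28 to 7.71) on a pileup of 3, and neither reached a q of 0.05. The Psmd1 peak overlapped the peaks in shControl (4.41, 2.45 to 7.46) and shDdx5 (5.58, 3.47 to 8.55), and the Psmd5 peak overlapped that in shControl (3.72, 1.96 to 6.56). No WT or KO peak of a member overlapped a no-antibody peak. Without the peaks that overlap a control peak, shControl had promoter peaks at 6 members (12%, against 14.6% of all genes) and shDdx5 at 16 (32%, against 22.8%), so that the members' share in shControl turned from above to below that of all genes.

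In HEK293 cells, S9.6 gave promoter peaks at members of every subunit class except the testis subunit PSMA8 and the inhibitor PSMF1. The share of all genes in this list was 30.1%, and no difference between classes was tested. The alpha ring had 4 of 7 (PSMA1, PSMA3, PSMA4, PSMA5), the beta ring 1 of 7 (PSMB1), the ATPases 4 of 6 (PSMC3, PSMC4, PSMC5, PSMC6) and the non-ATPases 7 of 11. Among the latter were PSMD1, PSMD3, PSMD4, which encodes the ubiquitin receptor Rpn10, and PSMD11. The chaperones had 4 of 7, the immunoproteasome and thymus beta genes 2 of 4 (PSMB8 and PSMB9), and the activators 1 of 4. The activator, PSME2, had the highest fold of the members, 7.22 (5.38 to 9.50, pileup 49). It was followed by PSMA1 at 6.93 (4.84 to 9.65), PSMD3 at 6.81 (4.80 to 9.39) and PSMC4 at 6.56 (4.43 to 9.38), whose intervals overlap that of PSME2. The median fold of the 27 member peaks was 4.93, against 4.62 over all 5689 promoter peaks of the list.

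**Figure D4:**
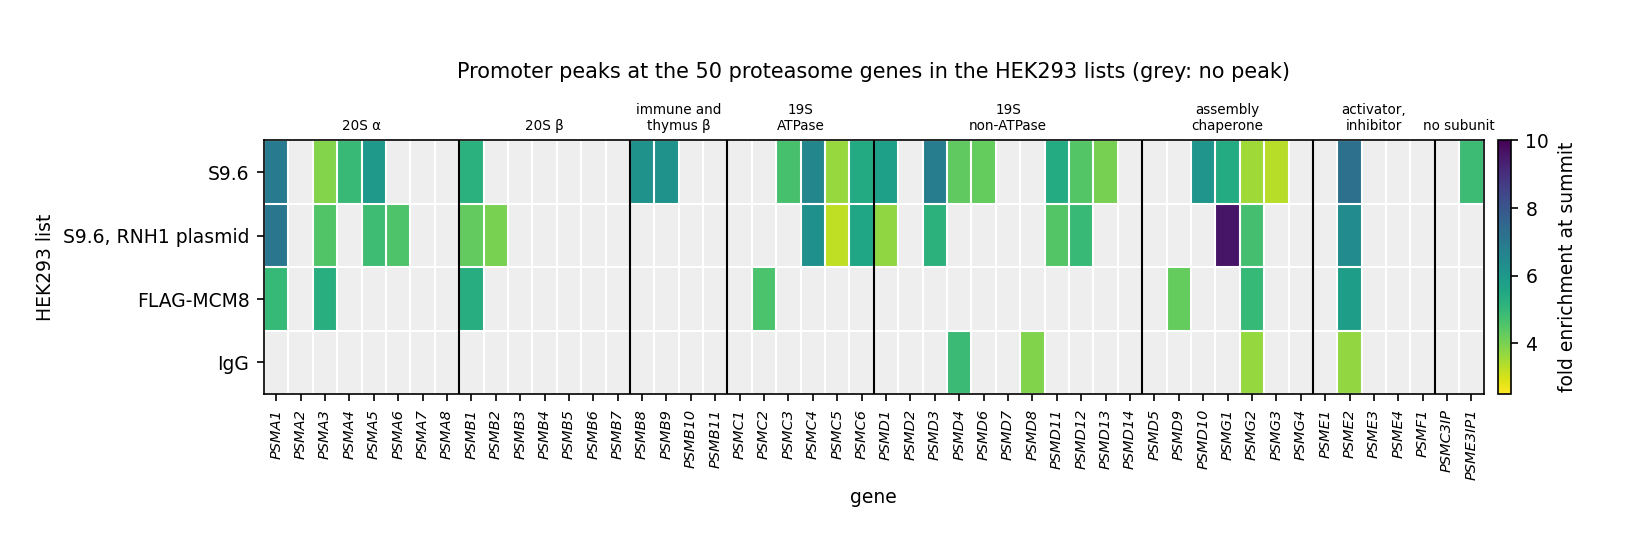
Fold enrichment at the summit of the strongest promoter peak (colour, from 2.5 to 10) for each of the 50 human proteasome genes (columns, by subunit class) in the 4 HEK293 lists (rows), with grey where no promoter peak was called. Of the 24 genes coloured in the S9.6 row, 14 are also coloured in the row with the RNH1 plasmid, and PSME2 and PSMG2 are coloured in all 4 rows.

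With the RNH1 plasmid, 14 members had a promoter peak in both lists (28%, against 17.5% of all genes), 10 had one in S9.6 and not with the plasmid (20%, against 12.6%) and 2 the reverse (4%, against 7.18%), PSMA6 and PSMB2. Of the 24 members in S9.6, 58.3% (interval 38.8 to 75.5) were also in the list with the plasmid, beside 58.1% of 6022 genes. At all 14 the peaks of the 2 lists overlapped, as they did at 89.5% of all genes with both. The 10 members without a peak in the plasmid list were PSMA4, PSMB8, PSMB9, PSMC3, PSMD4, PSMD6, PSMD10, PSMD13, PSMG3 and PSME3IP1. The highest fold among them, 6.18 (4.24 to 8.74, pileup 30), belonged to a single peak that lies at the starts of both PSMB8 and PSMB9, catalytic immunoproteasome subunit genes on opposite strands. PSMB9 had a second peak, at the start of TAP1, with 4.96 (3.22 to 7.34). PSMD10, which encodes the chaperone gankyrin, had 6.10 (3.80 to 9.36) at a start shared with ATG4A. PSMA4 had 4.93 (3.03 to 7.65) and PSME3IP1 4.87 (3.16 to 7.21). The nearest peak in the plasmid list was 5223 bp from PSMB8, 315656 bp from PSMD10 and 20857 bp from PSMA4.

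At the 14 shared members the folds with the plasmid were not uniformly lower. PSMG1, which encodes an assembly chaperone of the alpha ring, had 5.40 without the plasmid (3.62 to 7.76, pileup 27) and 9.57 with it (7.15 to 12.60, pileup 50), the highest of the members in either list. PSME2 had 7.22 and 6.39 (4.80 to 8.34), PSMA1 6.93 and 7.06 (5.09 to 9.55), and PSMD3 6.81 and 5.17 (3.52 to 7.35). PSMA5 had 5.97 (3.98 to 8.65) and 4.83 (3.14 to 7.15). The intervals of the 2 lists overlapped at each of these genes. PSMD1 had 2 peaks in S9.6, and the stronger one, with a fold of 5.76 (3.74 to 8.52) at an internal TSS, was not matched in the plasmid list, while the weaker one was. Recovered depth was 10390 fragments per Mb in S9.6 and 11050 with the plasmid.

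FLAG-MCM8 had promoter peaks at PSMA1, PSMA3, PSMB1, PSMC2, PSMD9, PSME2 and PSMG2. Of these, 5 also had an S9.6 promoter peak (10%, against 7.39% of all genes) and 2, the ATPase gene PSMC2 and the chaperone gene PSMD9, did not (4%, against 4.62%). The FLAG-MCM8 and S9.6 promoter peaks overlapped at PSMA3 and PSME2, 2 of the 5, beside 74.2% of the 1480 genes with both. PSME2 had the highest FLAG-MCM8 fold of the members, 5.79 (3.73 to 8.64, pileup 22), and PSMA3 had 5.29 (3.15 to 8.39, pileup 16). At PSMG2 the FLAG-MCM8 peak, with 4.98 (2.82 to 8.26), lay upstream of the S9.6 peak and overlapped the wider peak of the plasmid list. At PSMA1, with 4.98 (2.82 to 8.26), and PSMB1, with 5.33 (3.08 to 8.71), the scored peaks lay at internal TSSs, with summits 1091 bp and 1032 bp from the TSS, and the S9.6 peaks of these genes lay elsewhere. A further FLAG-MCM8 peak overlapped the S9.6 peak between PSMB1 and TBP, but its midpoint was not within 1 kb of a PSMB1 TSS. PSMC2 had 4.62 (2.56 to 7.81) at a start shared with DNAJC2, and PSMD9 had the lowest, 4.27 (2.31 to 7.35).

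The IgG list had promoter peaks at PSMD4 (fold 4.90, interval 3.29 to 7.05), PSMD8 (3.91, 2.34 to 6.21), PSME2 (3.72, 2.34 to 5.65) and PSMG2 (3.68, 2.16 to 5.93). None of these overlapped a peak of another HEK293 list. All 4 genes have 8 or more TSSs, and when only the 5′ end of each gene was used no member had an IgG promoter peak. In the S9.6, FLAG-MCM8 and plasmid lists no member peak overlapped an IgG peak, where 3.15%, 4.22% and 3.32% of all promoter peaks did. In all, 29 members had a promoter peak in at least 1 HEK293 list (58%, against 42.8% of all genes).

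**Figure D5:**
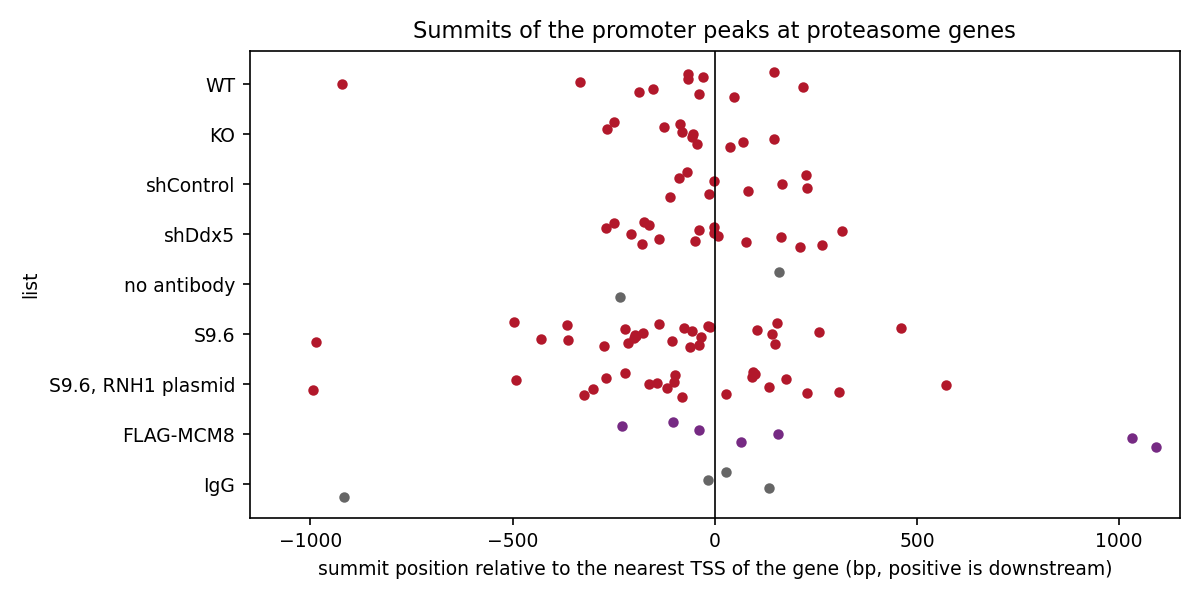
Distance of the summit of each promoter peak at a proteasome gene from a TSS of that gene (bp, positive is downstream), by list. The TSS is the one nearest to the midpoint of the peak. S9.6 lists are in red, FLAG-MCM8 in purple and controls in grey, offset vertically for visibility. In the MEF S9.6 lists all but a single summit lie within 333 bp of the TSS, and the 2 FLAG-MCM8 summits farthest downstream are those of PSMB1 (1032 bp) and PSMA1 (1091 bp).

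The summits sat close to the gene starts. Distances were taken from the summit to the TSS of the gene nearest to the peak's midpoint, and another TSS can be nearer to the summit. Their median was 146 bp in WT and 82 bp in KO, and 88 bp in shControl and 165 bp in shDdx5. In HEK293 cells it was 178 bp in S9.6, 162 bp with the plasmid and 156 bp in FLAG-MCM8. The farthest MEF summit, at Psmd13 in WT, lay at -923 bp, upstream. Members more often have a coding gene that starts within 1 kb on the opposite strand than genes in general, 13 of 50 (26%) against 12.3% in the mouse and 16 of 50 (32%) against 17.7% in the human. Over all genes, those with such a neighbour had promoter peaks more often in every list, for example 34.2% of 2708 mouse genes against 13.5% of the other 19230 in KO. Because the starts lie so close together, a peak there cannot be assigned to either gene. Of the 13 members with such a neighbour 5 had a promoter peak in WT and 6 each in KO, shControl and shDdx5, and of the other 37 it was 6, 5, 2 and 11. For all mouse genes the shares with and without a neighbour were 24.2% and 9.5% in WT, 30.8% and 12.5% in shControl, and 46.2% and 19.8% in shDdx5. In HEK293 S9.6 it was 10 of 16 members and 14 of the other 34, beside 50.4% and 25.7% of all genes. With the RNH1 plasmid the members did not follow that order, at 5 of 16 (31.2%) and 11 of 34 (32.4%), beside 42.7% and 20.7% of all genes.

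By symbol, 49 genes could be set side by side in both species. A promoter peak was found in at least 1 MEF S9.6 list and in HEK293 S9.6 at 16 of them: PSMA3, PSMA4, PSMA5, PSMB1, PSMB9, PSMC5, PSMC6, PSMD1, PSMD3, PSMD11, PSMD12, PSMD13, PSME2, PSMG1, PSMG2 and PSMG3. A further 8 had one in a MEF S9.6 list alone, 7 in HEK293 S9.6 alone and 18 in neither. The last group included PSMB5, which encodes the chymotrypsin-like catalytic subunit, and PSMD14, which encodes the deubiquitinase Rpn11. The HEK293 list with the RNH1 plasmid was not counted here, though PSMB2 and PSMA6 had a promoter peak in it. Of all mouse genes 33.9% had a promoter peak in at least 1 MEF S9.6 list, and of all human genes 30.1% had one in HEK293 S9.6. How many of all genes had one in both species was not computed, so the counts show no excess of shared genes. The calling thresholds of the species also differ, so these counts are a description.

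The promoter sequences of the members were searched on both strands, from 250 bases before to 50 bases after the TSS of a representative transcript, for an ARE core (TGACNNNGC), a CCAAT box (CCAAT) and an ETS site (CCGGAAGT). The ETS site was present at 8 of 50 mouse members (16%, against 5% of 21813 promoters) and 14 of 50 human members (28%, against 6.17% of 19060). The ARE core was present at 7 mouse members (14%, against 12.8%) and 14 human members (28%, against 14.1%), and the CCAAT box at 36% (against 38.6%) and 44% (against 36.1%). Among the 24 mouse members with an S9.6 promoter peak 12.5% had an ETS site and among the other 26 19.2%, and in the human the shares were 23.1% of 26 and 33.3% of 24. Over all genes the order was the other way. The ETS shares with and without a peak were 7.34% and 3.8% in the mouse, and 8.29% and 4.89% in the human. An ARE core was found at 16.7% of the mouse members with a peak and 11.5% of those without, and at 26.9% and 29.2% in the human. For all genes the ARE shares were 15.6% and 11.3% in the mouse, and 14.7% and 13.7% in the human. The 7 mouse members with an ARE core were Psmb2, Psmb6, Psmc6 and Psmd12, which had an S9.6 promoter peak, and Psmb5, Psmd7 and Psmd9, which did not. GC skew, the excess of G over C on the gene's strand that favours R-loop formation, was computed over the 500 bases after the TSS. Its median was 0.076 over the mouse members and 0.0526 over all mouse genes, and 0.0983 and 0.0526 in the human. The mouse members with an S9.6 promoter peak had a median of 0.108 and those without 0.0505. In the human these were 0.0959 and 0.0997, so the order in the mouse members did not recur in the human members. Over all genes the median was higher with a peak in both species. It was 0.0628 with and 0.047 without in the mouse, and 0.0676 and 0.0441 in the human. These are descriptions of letters in a window, with no test.

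Other genes of the ubiquitin and proteasome pathway that the symbol rule leaves out were taken from a list of 27 genes, of which 26 were found in the mouse and 27 in the human. Promoter peaks were found at 7 of 26 in WT (26.9%, against 11.3% of all genes), 10 in KO (38.5%, against 16%), 9 in shControl (34.6%, against 14.7%), 13 in shDdx5 (50%, against 23.1%) and 0 without antibody (against 1.24%). In HEK293 cells they were found at 10 of 27 in S9.6 (37%, against 30.1%), 11 with the plasmid (40.7%, against 24.6%), 5 in FLAG-MCM8 (18.5%, against 12%) and 1 in IgG (3.7%, against 5.59%). Usp14, the deubiquitinase of the 19S regulator, had a peak in all 4 MEF S9.6 lists, with folds of 4.93 in WT and 4.14 in KO, and of 4.72 in shControl and 4.33 in shDdx5. The shuttle factor gene Rad23b was also in all 4, with folds of 5.35, 5.00, 6.11 and 8.43. Adrm1, which encodes the ubiquitin receptor Rpn13, and Akirin2, which encodes a factor for nuclear import of proteasomes, had peaks in KO (3.43 and 4.19) and shDdx5 (3.54 and 3.85) and in neither control, a pattern that 2.95% of all genes had. Nfe2l1, the activator of proteasome genes, had a peak in shControl (3.49) and shDdx5 (4.13) and in neither WT nor KO. In HEK293 cells NFE2L1 had folds of 5.05 in S9.6 and 3.99 with the plasmid, and of 3.76 in IgG.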

How the data were processed

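Peak lists of 9 CUT&Tag libraries were used, 1 library per group, grouped by their GEO labels. The authors aligned the reads to mm10 or hg38 with bowtie2 and called peaks with MACS2 (version 2.1.2 in the submitters' processing notes, which also name Trimmomatic, while the study's methods name a later release). The MEF no-antibody library was not used as input. Whether IgG was used as input in HEK293 cells, and the threshold at calling, are not given in the sources used here. In HEK293 cells the methods call peaks significant at a fold over 2 and a p under 0.05; folds in the lists go down to 1.79 for S9.6 and 1.72 for S9.6 with the RNH1 plasmid. Peak numbers are skipped in the HEK293 lists, which were filtered after calling.

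For each peak the authors deposited the enrichment as a fold (a ratio over local background) at its summit, the −log10 of its p-value and the −log10 of its q-value. The deposited score was not used, and the summit offset gave positions. Folds and p-values depend on library depth.

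Peaks outside the autosomes and sex chromosomes were left out. A promoter peak has its midpoint within 1 kb of any TSS of a protein-coding gene (GENCODE M21 for mm10, 44 for hg38). The pileup was solved from fold and p as a whole number, and intervals are exact Poisson or 95% Wilson. Relative depth is the lowest background divided by the shortest peak. Promoter sequences were read from the mm10 and hg38 references. The placement of peaks and the pileup recovery were tested on simulated data. No test across libraries was possible with 1 library per group. Versions were scipy 1.17.1, pandas 2.3.3, numpy 2.4.6 and matplotlib 3.10.9 under Python 3.11.15.

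The members and lists were chosen with earlier results of these data known. Every member could be named; full values are given for members in all 4 MEF S9.6 lists, in KO and shDdx5 alone or the reverse, in FLAG-MCM8, with the 5 highest folds in S9.6 but not with the RNH1 plasmid, with the highest fold in a list, or in a control list. Other members were named as examples of their class. The alternatives tried are given under the closing section.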

Additional observations from a re-analysis of the deposited data

How the results depend on the processing

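The counts of members were recomputed under 10 other settings and 1 chosen after seeing the data, a q of 0.05 or lower. Of 141 values 111 stayed within 1.5 times the count given above and 30 did not. Only the differences of shDdx5 less shControl and of the RNH1 list less S9.6 could change sign, and neither did. Some values were fixed by the setting. A q of 0.05 or lower left every HEK293 count unchanged. WT and the RNH1 list set the number of strongest peaks and so stayed whole, as did the no-antibody list, which was not cut. At a q of 1e-05 or lower the counts were 0 in WT, KO, shControl and no antibody, 4 in shDdx5, 3 in FLAG-MCM8, 1 in IgG and 2 in both FLAG-MCM8 and S9.6, the difference of shDdx5 less shControl was 4 and that of the RNH1 list less S9.6 was -5. At a fold of at least 4 they were 4 in WT, 4 in KO, 5 in shControl, 0 without antibody, 1 in IgG and 3 in both FLAG-MCM8 and S9.6. With only the 5′ end of each gene they were 4 in FLAG-MCM8, 0 in IgG and 3 in both FLAG-MCM8 and S9.6. That last count was also 3 with TSSs within 500 bp and with the summit in place of the midpoint. With the same number of strongest peaks per list IgG had 2. At a q of 0.05 or lower WT had 5, KO 7, shControl 5 and no antibody 0. The difference of KO less WT, 0 above, was 1 with 500 bp, 2 with 3 kb, 2 with the 5′ end and 2 at a q of 0.05. The cause of these shifts was not tested, except that stricter thresholds keep fewer peaks by construction. The members' share lay above that of all genes in 9 of 9 lists as given above, in 6 of 7 without peaks at a control peak and in 3 of 9 at a q of 1e-05 or lower. At that q all genes had 0.757% in WT, 1.66% in KO, 0.82% in shControl and 0% without antibody. With shares so low, a count of 0 among 50 members says little, and the no-antibody list is a tie. No paired analysis was possible because each group has 1 library and the labels give no replicate numbers. Leaving out a library leaves no value for its group.

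Member peaks of the MEF S9.6 lists rest on pileups of 7 to 24 fragments, so a peak present in 1 list and missing from another can differ by a few fragments. Without replicates no difference here has an error beyond counting.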

Other observations

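Peaks inside the members' gene bodies, outside promoters, were counted beside all genes, with no matching for gene length. KO had them at 5 members (Psma2, Psmd1, Psmd9, Psmd12 and Psmg1), shDdx5 at 2 (Psmd9 and Psmd12), shControl at 1 (Psmg2) and WT at 0, where 11.7%, 12.6%, 15.3% and 8.57% of all protein-coding genes had them. The no-antibody list had 2 (Psma8 and Psmc2), against 6.6% of all genes. In HEK293 cells the list with the RNH1 plasmid had 6 and IgG 4, against 3 each in S9.6 and FLAG-MCM8, where 15.4%, 21.8%, 17.9% and 17.8% of all genes had them. In IgG these were PSMA1, PSMA5, PSMD3 and PSMG4.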
